A study of Rattus norvegicus with 9 samples.

Results

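The genes described here are 8 genes of the intermediate filament network and the fibre cytoskeleton of skeletal muscle: Synm, Des, Vim, Nes, Sync, Plec, Septin7 and Capza2. They are 8 of the 13752 gene IDs listed in the deposited tables of a rat gastrocnemius RNA-seq study, and they were found by matching the NCBI gene IDs to RefSeq symbols. The set was drawn up with results of these libraries in view, and 3 of its genes (Synm, Septin7 and Capza2) were chosen by their measured difference between stimulated and unstimulated denervated muscle. That comparison is therefore given below as values, with no test, for all 8 genes. All 8 were listed in all 9 libraries and all 8 passed the filter on low counts.

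The gastrocnemius is a mixed calf muscle supplied by the sciatic nerve. All animals were male rats aged 8 weeks, with no genetic modification named. SHAM muscle (n = 3 libraries) came from animals with a sham operation, and DN muscle (n = 3) from animals whose sciatic nerve was injured, with no stimulation given. DN-SM muscle (n = 3) came from animals with the same injury whose calf was stimulated every day through surface electrodes for 4 weeks from the day of surgery, with square pulses of 25 V, 1 mA, 2 Hz and 300 ms width. SHAM and DN animals were anaesthetised as well and carried the electrodes without current for 10 min. The labels do not give the kind of nerve injury or the number of animals behind the libraries of a group. The p-values below therefore measure the spread between libraries, which may in part be technical. The time at which SHAM and DN muscle was taken is not given either. Any difference in time since surgery therefore cannot be told apart from the effects of injury or stimulation.

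Intermediate filaments are the flexible, tension-bearing polymers of the cytoskeleton. In an adult muscle fibre they are built mainly of desmin, run around the Z-discs of neighbouring myofibrils and tie them to each other, to the nuclei, to the mitochondria and to the costameres at the cell membrane. Vimentin and nestin are the filament proteins of developing and regenerating fibres, and in adult muscle they are also expressed by cells between the fibres and, for nestin, at nerve and tendon junctions. Desmin gene mutations cause myofibrillar myopathy in humans, and the network is known to be remodelled in denervated muscle.

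Each library held 7926445 to 8893843 estimated counts. Of 14 genes listed as markers of skeletal muscle fibres, 13 were measured and none was at 0 in any library. The SHAM libraries were the least alike: on the first principal component of all tested genes SHAM replicates 1, 2 and 3 lay at -12.71, -39.09 and 9.73, whereas the 3 DN libraries lay between 22.15 and 24.53 and the 3 DN-SM libraries between -11.51 and -8.45. Results that depend on SHAM replicate 2 or 3 are given with and without them.

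The start regions of the genes whose levels differed most between groups are printed here, because Synm, Septin7 and Capza2 had their lowest mean in DN and Vim had its highest there. RefSeq promoter sequences of assembly GRCr8, each 300 bases long (250 before and 50 after the start, read 5′ to 3′ on the gene's strand), were available for 7 of the 8 genes, and Plec was not among them. Capitals mark every match, on either strand, to a short list of motifs. The CCAAT box was searched by those letters, the E-box was spelled CANNTG and the GC box was spelled GGGCGG. The TATA box was spelled TATAAA, the AP-1 motif was spelled TGANTCA, and the MEF2 and CArG motifs were searched as well. No matches overlapped in the printed regions. The Synm region is chr1:130773775-130774074 on the minus strand and the Septin7 region is chr8:31995348-31995647 on the plus strand. The Capza2 region is chr4:46943790-46944089 and the Vim region is chr17:81577011-81577310, both on the plus strand.
Synm: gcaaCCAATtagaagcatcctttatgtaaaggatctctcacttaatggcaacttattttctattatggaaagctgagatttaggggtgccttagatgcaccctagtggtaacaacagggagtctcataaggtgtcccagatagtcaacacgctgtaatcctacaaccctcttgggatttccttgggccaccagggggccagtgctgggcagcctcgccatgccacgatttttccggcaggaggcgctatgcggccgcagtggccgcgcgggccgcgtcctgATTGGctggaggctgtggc
Septin7: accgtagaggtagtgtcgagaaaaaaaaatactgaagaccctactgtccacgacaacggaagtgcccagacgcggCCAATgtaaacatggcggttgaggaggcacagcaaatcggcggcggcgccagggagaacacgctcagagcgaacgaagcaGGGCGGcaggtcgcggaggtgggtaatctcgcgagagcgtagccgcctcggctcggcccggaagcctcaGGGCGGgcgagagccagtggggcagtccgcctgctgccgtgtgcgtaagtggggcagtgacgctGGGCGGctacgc
Capza2: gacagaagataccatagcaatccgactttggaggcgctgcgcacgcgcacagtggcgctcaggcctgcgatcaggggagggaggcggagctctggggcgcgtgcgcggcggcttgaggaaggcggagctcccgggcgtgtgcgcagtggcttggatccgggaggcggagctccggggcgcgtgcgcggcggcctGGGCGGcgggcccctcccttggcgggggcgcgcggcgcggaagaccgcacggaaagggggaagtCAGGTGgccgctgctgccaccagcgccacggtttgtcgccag
Vim: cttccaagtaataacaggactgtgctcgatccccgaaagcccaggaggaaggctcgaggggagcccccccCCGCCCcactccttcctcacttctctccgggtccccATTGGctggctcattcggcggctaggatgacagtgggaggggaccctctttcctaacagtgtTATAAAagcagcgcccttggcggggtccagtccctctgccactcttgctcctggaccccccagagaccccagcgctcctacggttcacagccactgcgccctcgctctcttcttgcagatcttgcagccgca

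The Synm region held CCAAT boxes at -246 to -242 and at 32 to 36 relative to the start, and no match to any other motif searched. The Septin7 region held 1 CCAAT box, at -175 to -171, and GC boxes at -95 to -90, -26 to -21 and 39 to 44. The Capza2 region held a GC box at -56 to -51 and an E-box, CAGGTG, at 9 to 14, and no CCAAT box. The Vim region held a TATAAA at -82 to -77, a CCAAT box at -144 to -140 and a GC box at -180 to -175. No motif was shared by all of Synm, Septin7 and Capza2. CCAAT boxes were present in 37.5% of the 33469 rat promoters of this length, GC boxes in 33.1%, E-boxes in 72.1% and TATAAA in 14.2%. The GC content was 54.0% for Synm, 64.0% for Septin7, 73.3% for Capza2 and 62.0% for Vim, beside a median of 51.7% over all these promoters. None of the 7 regions held an AP-1, MEF2 or CArG match, motifs found in 7.33%, 3.29% and 1.64% of all promoters. Of the other 3 regions, that of Des held an E-box, CAGCTG, at -79 to -74, and that of Sync held E-boxes at -15 to -10 (CAAGTG) and at 32 to 37 (CAGCTG). GC boxes numbered 3 in the Des region, 2 in that of Sync and 2 in that of Nes, which held no other match. These matches are a description of the letters in the window and not evidence of binding.

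Levels are the authors' FPKM, fragment counts scaled to transcript length and library size, so they can be compared between genes. Desmin was by far the most abundant of the 8 mRNAs, at 3259 ± 154 FPKM (mean ± SD, n = 3) in SHAM muscle. The next were Plec at 107 ± 22.1 FPKM and Vim at 84.8 ± 18.2, then Synm at 60.1 ± 10.4, Capza2 at 36.1 ± 17.2, Sync at 24.8 ± 2.96, Septin7 at 11.2 ± 3.57 and Nes at 4.85 ± 1.78. From Plec down to Sync, the mean ± SD ranges of neighbours in this order overlapped, whereas Des, Septin7 and Nes stood apart from their neighbours. The order of Vim and Plec turned: Plec was above Vim in each of the 3 SHAM libraries, and Vim was above Plec in each of the 6 denervated ones.

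**Figure D1:**
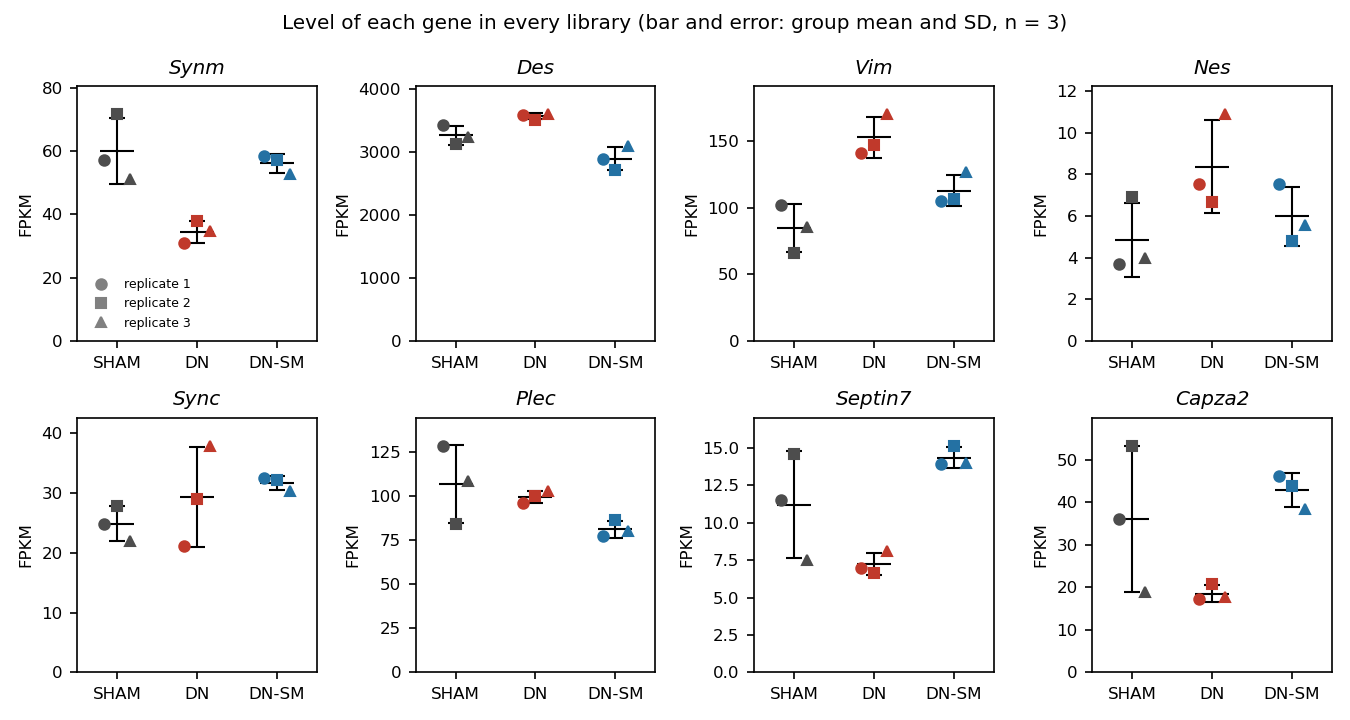
Level of each gene (FPKM, linear axis from 0) in every SHAM, DN and DN-SM library. Points are libraries, with the shape giving the replicate number, and the bar with its error is the group mean ± SD (n = 3). Synm lies lowest in DN, at 31.01 to 38.00 FPKM, and Vim highest in DN, at 140.95 to 170.24 FPKM, whereas SHAM Capza2 ranges from 18.89 to 53.28 FPKM.

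Denervation moved 2 of the 8 mRNAs past the threshold, in opposite directions: synemin fell and vimentin rose. The level of desmin, the main filament protein, was close to that of sham muscle. The question of this comparison is what sciatic nerve injury without stimulation does to the muscle. It was tested with edgeR's quasi-likelihood test across all genes, with Benjamini-Hochberg adjusted p under 0.05 as the threshold, and 4.26% of the 10129 tested genes passed (260 higher and 172 lower in DN). At an unadjusted p under 0.05 there were 5 of the 8 genes (Synm, Vim, Nes, Septin7 and Capza2) and 22.3% of all tested genes. The DN libraries also belong to the comparison that chose 3 of the genes, so the test of those genes here is not independent of their choice. All 3 are among the 5 genes above, so that count cannot be read against the share of all tested genes.

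Synm encodes synemin, a large intermediate filament protein that does not form filaments alone but joins desmin or vimentin and links them to costamere proteins. Its level was 57.28, 71.59 and 51.28 FPKM in SHAM replicates 1, 2 and 3, and 31.01, 38.00 and 34.60 FPKM in DN replicates 1, 2 and 3. Every DN library was below every SHAM library. Synm fell by 0.88 on the log2 scale (SE 0.15, edgeR adjusted p = 0.0122), a fold change of 0.54. Without DN replicate 3 the adjusted p was 0.0631 with a log2 fold change of -0.84, and in the other 17 of 18 alternatives Synm remained past the threshold.

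Vim encodes vimentin, the filament protein of mesenchymal cells and of immature muscle fibres. Its level was 102.49, 66.21 and 85.83 FPKM in SHAM and 140.95, 147.30 and 170.24 FPKM in DN. All 3 DN libraries were above all 3 SHAM libraries. Vim rose by 0.78 on the log2 scale (SE 0.123, edgeR adjusted p = 0.00823), a fold change of 1.72, and passed in 18 of 18 alternatives, with adjusted p up to 0.0453 without DN replicate 3.

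Des encodes desmin. Its level was 3425.94, 3123.49 and 3227.15 FPKM in SHAM and 3582.78, 3508.18 and 3591.66 FPKM in DN. The DN libraries all lay above the SHAM libraries in FPKM, by a ratio of group means of 1.09. On the edgeR scale, which uses other library factors, the log2 fold change was 0.06 (SE 0.131, adjusted p = 0.845), so that a change was not detectable beyond the spread between libraries. Groups without overlap in FPKM were found for 3 of the 8 genes (Vim and Des higher, Synm lower), and for 22.8% of all tested genes. Synm is among the chosen genes, so its place in this count is not independent of its choice.

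Nes encodes nestin, a large filament protein that assembles with vimentin or desmin. It was at 3.69, 6.90 and 3.97 FPKM in SHAM and 7.55, 6.70 and 10.89 FPKM in DN, with SHAM replicate 2 inside the DN range. Its log2 fold change was 0.68 (SE 0.287, edgeR adjusted p = 0.199). Without SHAM replicate 2 it was 1.07 with an adjusted p of 0.0435, the only 1 of 18 alternatives that called it. Without SHAM replicate 1 it was 0.46 (adjusted p = 0.379) and without DN replicate 3 it was 0.50 (adjusted p = 0.439).

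Sync encodes syncoilin, a filament protein that binds alpha-dystrobrevin and desmin at the membrane and the neuromuscular junction. It was at 24.70, 27.85 and 21.93 FPKM in SHAM and 21.13, 28.96 and 37.82 FPKM in DN. DN replicates ran from below the lowest SHAM library to above the highest. The log2 fold change was 0.15 (SE 0.167, edgeR adjusted p = 0.653), and it was -0.03 without DN replicate 3.

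Plec encodes plectin, the cytolinker that anchors desmin filaments to Z-discs, costameres, nuclei and mitochondria. It was at 128.56, 84.35 and 108.37 FPKM in SHAM and 96.09, 100.29 and 102.73 FPKM in DN. The DN libraries lay inside the SHAM range, and the log2 fold change was -0.16 (SE 0.125, edgeR adjusted p = 0.475).

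Septin7 encodes a core subunit of septin filaments, which line the cell cortex and meet actin and microtubules, and Capza2 encodes an alpha subunit of the actin capping protein CapZ, which holds the barbed ends of thin filaments at the Z-disc. Septin7 was at 11.49, 14.61 and 7.48 FPKM in SHAM and 6.98, 6.66 and 8.08 FPKM in DN. Capza2 was at 36.16, 53.28 and 18.89 FPKM in SHAM and 17.22, 20.78 and 17.62 FPKM in DN. For both genes the SHAM libraries ran from replicate 2, the highest, to replicate 3, which lay inside the DN range. The coefficient of variation over SHAM libraries was 31.9% for Septin7 and 47.6% for Capza2.

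The log2 fold change of Septin7 in DN against SHAM was -0.71 (SE 0.209, edgeR adjusted p = 0.076) and that of Capza2 was -1.04 (SE 0.319, edgeR adjusted p = 0.101). Neither gene passed in edgeR with all libraries, and both passed only with SHAM replicate 3 left out. Without it the edgeR values were -0.92 with an adjusted p of 0.00654 for Septin7 and -1.35 with an adjusted p of 0.00409 for Capza2. Without SHAM replicate 2 they were -0.41 and -0.58, and neither passed. With all libraries, DESeq2 called both.

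**Figure D2:**
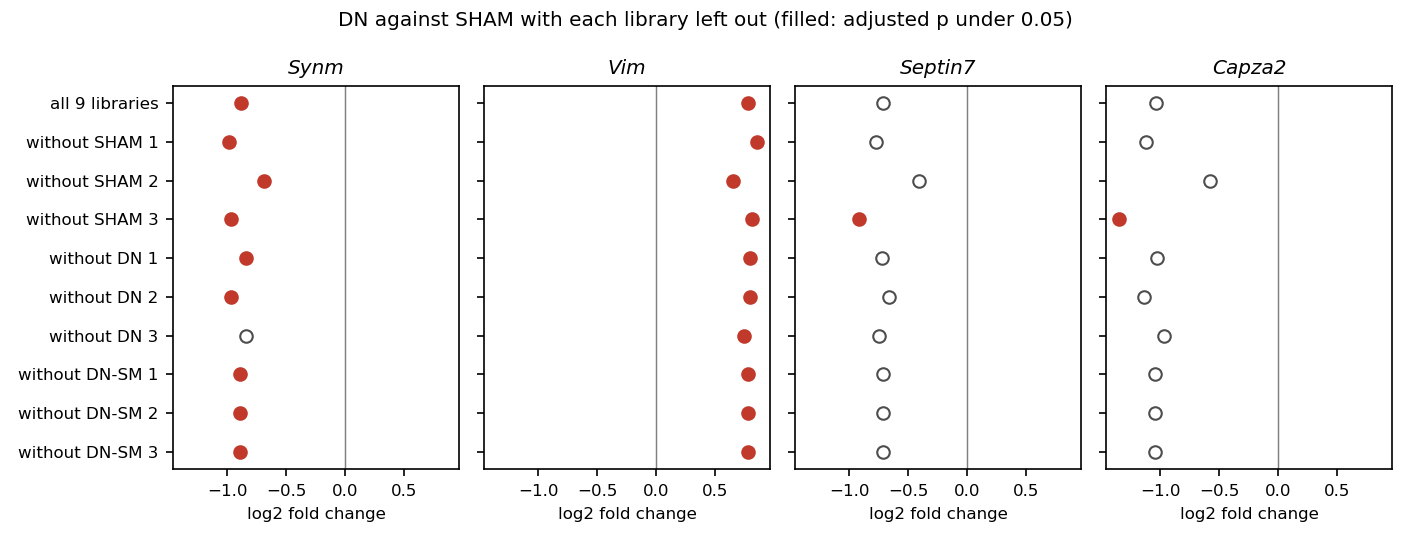
Log2 fold change of Synm, Vim, Septin7 and Capza2 in DN against SHAM (x axis, edgeR) with all 9 libraries and with each library left out (y axis). Filled points have an adjusted p under 0.05. Synm stays between -0.99 and -0.69 and Vim between 0.66 and 0.86, whereas Septin7 spans -0.92 to -0.41 and Capza2 -1.35 to -0.58, with filled points only without SHAM replicate 3.

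Stimulated denervated muscle had more Synm, Septin7 and Capza2 mRNA and less Vim mRNA than unstimulated denervated muscle. Des and Plec were slightly lower, at log2 fold changes of -0.21 (SE 0.132) and -0.20 (SE 0.125), and Nes and Sync overlapped between the groups. These values are a description, since this comparison chose 3 of the genes. The comparison asks what daily stimulation changes in a muscle with an injured nerve. Because the time at which DN muscle was taken is not given, time since injury cannot be told apart from stimulation here. The same edgeR fit called 1 of the 10129 tested genes, or 0.00987%, and this gene was lower in DN-SM. The number called depended strongly on the fit. It was far higher by DESeq2, in a fit of the 2 groups alone and without SHAM replicate 3, as given in the closing section.

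In DN-SM libraries Synm was at 58.28, 57.31 and 52.63 FPKM, each above the highest DN library at 38.00. The log2 fold change in DN-SM against DN was 0.80 (SE 0.15). Septin7 was at 13.91, 15.13 and 13.98 FPKM, and the highest DN library was at 8.08. The log2 fold change of Septin7 was 1.08 (SE 0.208). Capza2 was at 46.17, 43.89 and 38.49 FPKM, against at most 20.78 in DN, and had the largest log2 fold change of the 8 genes in this comparison, 1.30 (SE 0.32). With each of the 9 libraries left out in turn, the log2 fold change ran from 0.76 to 0.88 for Synm, from 1.04 to 1.12 for Septin7 and from 1.23 to 1.40 for Capza2.

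Des was at 2883.02, 2706.89 and 3082.79 FPKM in DN-SM, below every DN library, and its log2 fold change was -0.21 (SE 0.132). Vim was at 105.34, 106.77 and 126.54 FPKM in DN-SM, below every DN library, with a log2 fold change of -0.34 (SE 0.122). Plec was at 77.32, 86.58 and 79.99 FPKM, also below every DN library, with a log2 fold change of -0.20 (SE 0.125). Nes at 7.56, 4.82 and 5.57 FPKM and Sync at 32.50, 32.15 and 30.33 FPKM overlapped the DN libraries, with log2 fold changes of -0.37 (SE 0.284) and 0.22 (SE 0.166). In all, 6 of the 8 genes had no overlap between DN-SM and DN, in a comparison where 32.7% of all tested genes had none. The 3 higher ones (Synm, Septin7 and Capza2) were chosen by this difference, so the count cannot be read against that share. The 3 lower ones were Des, Vim and Plec. The median log2 fold change over all genes in this comparison was -0.092 by limma on log2(FPKM + 1) and -0.011 by edgeR. FPKM values of DN-SM thus lay somewhat lower against DN than edgeR values did.

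None of the 8 genes passed the test between DN-SM and SHAM. The comparison sets stimulated denervated muscle beside muscle with an intact nerve, and edgeR called 0.839% of the tested genes, 42 higher and 43 lower. DESeq2 called 0 of the 8 as well, and 3 (Vim, Sync and Plec) had an unadjusted edgeR p under 0.05, beside 12.8% of all tested genes. DN-SM libraries are shared with the comparison that chose 3 of the genes.

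For Synm the DN-SM mean was 56.1 ± 3.02 FPKM (n = 3) against 60.1 ± 10.4 in SHAM, with a log2 fold change of -0.09 (SE 0.149, edgeR adjusted p = 0.854). Its sign turned to 0.11 without SHAM replicate 2. Capza2, at 42.9 ± 3.94 FPKM against 36.1 ± 17.2, had a log2 fold change of 0.26 (SE 0.312, edgeR adjusted p = 0.782), which moved to -0.04 without SHAM replicate 3 and to 0.73 with replicate 2 left out instead. Septin7, at 14.3 ± 0.685 FPKM against 11.2 ± 3.57, had a log2 fold change of 0.37 (SE 0.203, edgeR adjusted p = 0.477). That of Septin7 was 0.68 (adjusted p = 0.0544) without SHAM replicate 2 and 0.17 (adjusted p = 0.747) without SHAM replicate 3.

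Vim was the gene nearest to the threshold in this comparison. Its DN-SM level was 113 ± 11.8 FPKM against 84.8 ± 18.2 in SHAM, with a log2 fold change of 0.45 (SE 0.122, edgeR adjusted p = 0.123), and every DN-SM library was above every SHAM library. Sync (log2 fold change 0.37, SE 0.167, edgeR adjusted p = 0.385) was also without overlap and higher in DN-SM. Des (log2 fold change -0.15, SE 0.131, edgeR adjusted p = 0.673) was without overlap and lower. These 3 of 8 genes without overlap in FPKM stand beside 16.8% of all tested genes. Plec, at 81.3 ± 4.77 FPKM against 107 ± 22.1, had a log2 fold change of -0.36 (SE 0.126, edgeR adjusted p = 0.225), and Nes had 0.31 (SE 0.288, edgeR adjusted p = 0.696). Without SHAM replicate 2 the Nes value was 0.71 (adjusted p = 0.153), and without SHAM replicate 1 it was 0.09. The medians of the 8 log2 fold changes were -0.05 in DN against SHAM, 0.01 in DN-SM against DN and 0.29 in DN-SM against SHAM, beside -0.01, -0.01 and 0.02 over all tested genes. The medians of the 8 include the chosen genes Synm, Septin7 and Capza2, so they are in part set by that choice.

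**Figure D3:**
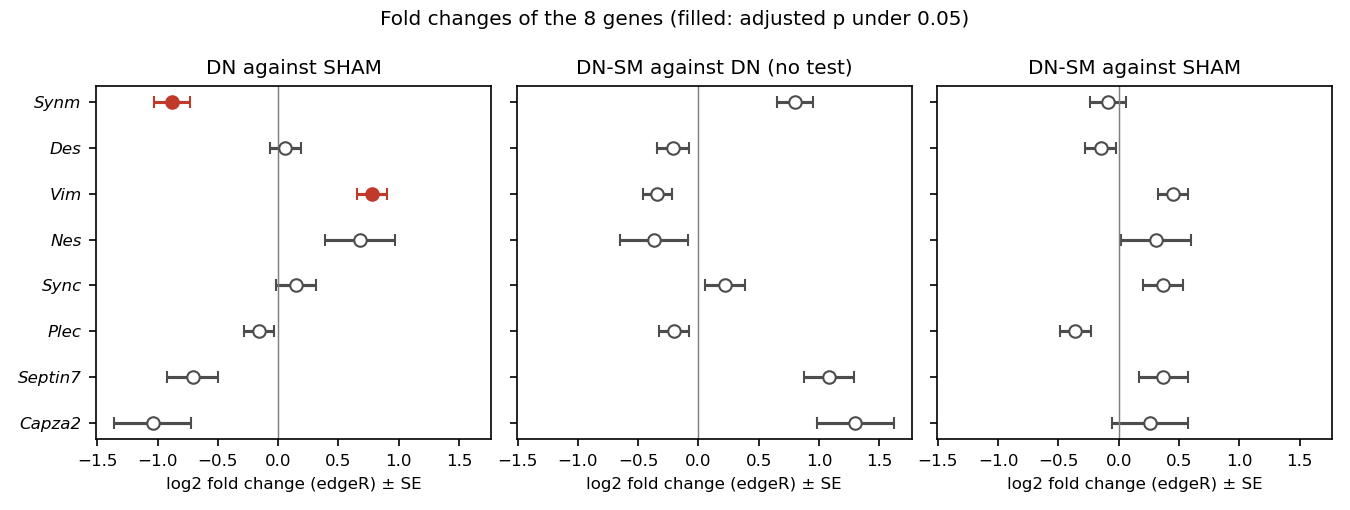
Log2 fold change ± SE (x axis, edgeR) of the 8 genes (y axis) in the 3 comparisons. Filled points have an adjusted p under 0.05, and DN-SM against DN has no test. Synm at -0.88 and Vim at 0.78 are filled in DN against SHAM, Septin7 and Capza2 reach 1.08 and 1.30 in DN-SM against DN, and no point is filled in DN-SM against SHAM.

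The make-up of the filament mRNA pool followed from these levels. Shares were taken of the summed FPKM of the 5 genes of intermediate filament proteins (Des, Vim, Synm, Sync and Nes). Desmin made up 94.9 ± 0.239% for SHAM, 94.1 ± 0.646% for DN and 93.3 ± 0.208% for DN-SM (mean ± SD, n = 3). The share of vimentin was 2.46 ± 0.418% for SHAM, 4.03 ± 0.358% for DN and 3.64 ± 0.214% for DN-SM. The share of synemin was 1.76 ± 0.362% for SHAM, 0.913 ± 0.1% for DN and 1.82 ± 0.197% for DN-SM. Desmin mRNA outnumbered synemin mRNA by a ratio of 55.5 ± 10.4 for SHAM, 104 ± 11.6 for DN and 51.8 ± 6.01 for DN-SM. The ratio of desmin to vimentin was 39.4 ± 7.05 for SHAM, 23.4 ± 2.18 for DN and 25.7 ± 1.53 for DN-SM. By these ratios DN-SM lay near SHAM for synemin and near DN for vimentin. The ratios also carry the level of desmin, which was lowest in DN-SM. The Vim level itself, at 113 ± 11.8 FPKM in DN-SM, lay between 84.8 ± 18.2 in SHAM and 153 ± 15.4 in DN. No test was run on the shares, which contain values of the chosen genes.

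Vimentin and nestin are also expressed by cells between the fibres, and markers of some of these cells were higher in DN. In these whole-muscle samples, more cells of a type and more RNA per cell cannot be told apart. The summed level of 12 endothelial markers was 529 to 721 CPM (counts scaled to library size) in SHAM, 813 to 1030 in DN and 696 to 748 in DN-SM, and 5 of the 12 passed as higher in DN against SHAM (0 without DN replicate 3). The summed level of 11 measured Schwann cell markers was 121 to 135 CPM in SHAM, 268 to 619 in DN and 157 to 348 in DN-SM, with 2 of the 9 tested called higher in DN (0 without DN replicate 1 or 3) and with Cdh19 and Gfap at 0 in some library. The 12 smooth muscle and pericyte markers summed to 484 to 710 CPM in SHAM and 707 to 792 in DN, with 1 called in DN against SHAM (0 in 7 of the 9 fits with a library left out). Of the 11 tested fibroblast markers none passed by edgeR or DESeq2 in DN against SHAM (0 at an unadjusted p under 0.05), and their sum was 1669 to 4429 in SHAM and 2544 to 3632 in DN. The same counts were 0 for the 12 macrophage and leukocyte markers, which summed to 65.4 to 129 in SHAM and 76.2 to 121 in DN. The part of these cells in the Vim and Nes values was not tested.

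Some immature fibre genes were higher in DN, as Vim was. Of 13 tested satellite cell and regenerating fibre genes, 5 passed as higher in DN than in SHAM, 0 passed as lower and 8 were not called. Over all tested genes 4.26% passed. The list was drawn up with earlier results of these data known, so its count cannot be read against that share. The list median log2 fold change was 0.94, and the satellite cell gene Pax7 was not among the tested genes. Myog, a transcription factor of muscle differentiation, had a mean level of 18.5 ± 4.57 FPKM in SHAM muscle, 35.0 ± 4.48 in DN muscle and 24.8 ± 4.42 in DN-SM muscle (SD, n = 3). Its log2 fold change in DN against SHAM was 0.86 (SE 0.163, edgeR adjusted p = 0.018). Ncam1, the neural cell adhesion molecule that denervated fibres are known to display, was at 3.68 ± 1.27 FPKM for SHAM and 8.03 ± 1.48 for DN (a log2 fold change of 1.07, edgeR adjusted p = 0.0281). Myh3, which encodes the myosin of embryonic fibres, averaged 3.79 ± 2.38 FPKM in SHAM muscle, 21.2 ± 7.75 in DN muscle and 11.9 ± 1.73 in DN-SM muscle (log2 fold change 2.43, edgeR adjusted p = 0.0361 in DN against SHAM). Actc1, the cardiac alpha-actin of developing muscle, and Tnnt2, cardiac troponin T, were the other 2 genes called. All 5 calls are lost without DN replicate 1 and without DN replicate 3, and edgeR called 0 of the 13 genes in DN-SM against DN and in DN-SM against SHAM (1 each by DESeq2, and 3 and 5 at an unadjusted p under 0.05).

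Fibre-type markers varied most among the SHAM libraries. The 10 measured fast fibre markers summed to 118271, 178121 and 141043 CPM in SHAM replicates 1, 2 and 3, to 96535 to 118530 in DN and to 125334 to 149802 in DN-SM. The 9 slow fibre markers summed to 23493, 6463 and 15765 in SHAM replicates 1, 2 and 3, to 21967 to 30820 in DN and to 11653 to 26399 in DN-SM. SHAM replicate 2, with the highest Synm, Septin7 and Capza2 and the lowest Vim, had the highest fast and the lowest slow sum. The part of fibre type in these values was not tested.

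The rest of the cytoskeleton was read from lists of related genes, which were drawn up with earlier results of these data known. No list had more than 5 of its genes past the edgeR threshold in any comparison, and all the lists named here had 0 called in DN-SM against DN. In DN-SM against DN, DESeq2 called 2 tubulin genes, 1 other intermediate filament gene and 1 satellite cell or regenerating fibre gene, and edgeR without SHAM replicate 2 called 4 tubulin genes lower. At an unadjusted edgeR p under 0.05 there were 8 of 22 tubulin genes in that comparison and 1 to 3 genes of each other list, beside 17.6% of all tested genes.

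Of 6 tested intermediate filament genes outside the 8, none passed in DN against SHAM by edgeR (2 at an unadjusted p under 0.05, and 1 called by DESeq2), with a median log2 fold change of 0.33 and a range of -0.41 to 1.05. Lmna, which encodes the nuclear lamins A and C, was at 56.6 ± 10.6 FPKM for SHAM, 79.2 ± 8.64 for DN and 54.6 ± 0.787 for DN-SM, with a log2 fold change of 0.42 (SE 0.117, edgeR adjusted p = 0.0625) in DN against SHAM. Prph, the filament protein of peripheral neurons, was at 1.16 ± 0.667 FPKM for SHAM and 2.13 ± 0.256 for DN (edgeR adjusted p = 0.243). Without SHAM replicate 3, 2 of the 6 were called higher.

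Of 24 tested desmin chaperones and Z-disc or costamere linkers, none passed in DN against SHAM by edgeR (8 at an unadjusted p under 0.05, and 1 called by DESeq2), with 16 log2 fold changes above 0, 8 below and a median of 0.25. Hspb8, the small heat shock protein that works with Bag3 on damaged filament proteins, was at 209 ± 28.8 FPKM for SHAM, 311 ± 48.2 for DN and 239 ± 16.2 for DN-SM (log2 fold change 0.50, SE 0.133, edgeR adjusted p = 0.0548 in DN against SHAM). Dmd, which encodes dystrophin, had a log2 fold change of -0.01 (SE 0.258, edgeR adjusted p = 0.99), and its sign turned in limma on FPKM. Cryab, the alpha-B crystallin that protects desmin, had 0.41 (SE 0.357, edgeR adjusted p = 0.552).

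Of 9 tested plakin, desmosome and nuclear envelope genes, 1 passed: Jup, which encodes plakoglobin, was at 52.2 ± 7.02 FPKM for SHAM, 74.7 ± 6.43 for DN and 54.7 ± 6.82 for DN-SM. Its log2 fold change in DN against SHAM was 0.45 (SE 0.115, edgeR adjusted p = 0.0476), and the call is lost when any of the 9 libraries is left out. The plectin relative Macf1 had a log2 fold change of 0.42 (SE 0.135, edgeR adjusted p = 0.0934), beside -0.16 for Plec itself.

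Of 7 tested septins other than Septin7, none passed in any comparison by edgeR. DESeq2 called 1 in DN against SHAM and 0 in the other comparisons, and at an unadjusted edgeR p under 0.05 there were 3 in DN against SHAM, 1 in DN-SM against DN and 3 in DN-SM against SHAM. In DN against SHAM 5 had log2 fold changes above 0 and 2 below, with a median of 0.35, whereas that of Septin7 was -0.71. Septin9 was at 11.9 ± 2.36 FPKM for SHAM, 17.6 ± 1.55 for DN and 14.6 ± 1.13 for DN-SM (log2 fold change 0.48, SE 0.132, edgeR adjusted p = 0.0612 in DN against SHAM). Septin2 had 0.02 (SE 0.175, edgeR adjusted p = 0.956). In DN-SM against DN the other septins ran from -0.40 to 0.17, and Septin7 was at 1.08. Without SHAM replicate 3, 3 of the 7 were called higher in DN against SHAM.

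Of 22 tested actin capping and thin filament end genes other than Capza2, 2 passed as higher and 1 as lower in DN against SHAM. The other subunits of CapZ were not among them, and Capza2 itself was not called either. Capza1 was at 5.61 ± 1.9 FPKM for SHAM, 5.21 ± 1.08 for DN and 6.53 ± 0.416 for DN-SM, and its log2 fold change in DN against SHAM was -0.17 (SE 0.201, edgeR adjusted p = 0.661). Capzb, the beta subunit, was at 123 ± 17.0 FPKM for SHAM, 138 ± 21.9 for DN and 151 ± 7.12 for DN-SM (log2 fold change 0.09, SE 0.152, edgeR adjusted p = 0.761 in DN against SHAM), and its sign turned to -0.09 without DN replicate 1. Capza2 mRNA was thus above Capza1 mRNA and below Capzb mRNA in mean FPKM in each group. In DN-SM against DN the log2 fold change of Capza1 was 0.43 (SE 0.2, edgeR adjusted p = 0.285). That of Capzb was 0.22 (SE 0.152, edgeR adjusted p = 0.449). Both had the direction of Capza2, which was at 1.30.

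The actin genes that passed act on filament turnover and length. Wdr1, which promotes filament disassembly with cofilin, was at 46.7 ± 5.2 FPKM for SHAM and 74.1 ± 7.39 for DN (a log2 fold change of 0.60, SE 0.105, edgeR adjusted p = 0.0136). Cfl1, the non-muscle cofilin that severs actin filaments, was at 64.7 ± 10.2 FPKM for SHAM and 106 ± 20.0 for DN (a log2 fold change of 0.63, SE 0.134, edgeR adjusted p = 0.0262). Lmod1, the smooth muscle leiomodin that nucleates actin filaments, was at 4.16 ± 0.28 FPKM for SHAM, 2.05 ± 0.0985 for DN and 1.98 ± 0.569 for DN-SM. Lmod1 fell by 1.10 on the log2 scale in DN (edgeR adjusted p = 0.015) and by 1.06 in DN-SM against SHAM (edgeR adjusted p = 0.0361). Without DN replicate 3 none of the 3 was called in DN against SHAM. The Cfl1 call was also lost without SHAM replicate 1, SHAM replicate 2 or DN replicate 2, so that it held in 5 of the 9 fits with a library left out, and those of Wdr1 and Lmod1 held in 8. The Lmod1 call in DN-SM against SHAM held in 2 of the 9 fits with a library left out.

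Of 22 tested tubulin and microtubule genes, 4 passed as higher and 1 as lower in DN against SHAM, with a list median of 0.20. Tubb6, a tubulin known to rise in regenerating fibres of the mouse, was at 12.54, 6.77 and 10.99 FPKM in SHAM, then 26.36, 20.04 and 39.98 FPKM in DN, then 15.54, 14.78 and 11.87 FPKM in DN-SM. Every DN library was above every other library. Its log2 fold change in DN against SHAM was 1.44 (SE 0.237, edgeR adjusted p = 0.0122). Map1a, a microtubule-associated protein, was at 3.96 ± 0.598 FPKM for SHAM, 10.6 ± 3.38 for DN and 7.18 ± 1.37 for DN-SM, with a log2 fold change of 1.34 (SE 0.198, edgeR adjusted p = 0.00812). Map1a and Tubb6 passed in 18 of 18 alternatives.

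Tubb5 (log2 fold change 0.71, edgeR adjusted p = 0.0192) and Tuba1b (0.62, edgeR adjusted p = 0.0261) were the other tubulins that rose in DN. Tuba4a, the most abundant of the tubulins named here at 620 ± 34.5 FPKM in SHAM, fell in DN to 437 ± 45.1 (log2 fold change -0.58, edgeR adjusted p = 0.0445) and was at 357 ± 41.7 in DN-SM (log2 fold change -0.78 against SHAM, edgeR adjusted p = 0.0348). The tubulin family shares long stretches of near-identical sequence, so the split of reads among its members is uncertain. Without DN replicate 1 or 3 the list had 2 genes called higher, and without SHAM replicate 3 it had 7. In 6 of the 9 fits with a library left out no tubulin gene was called lower in DN against SHAM, and the Tuba4a call in DN-SM against SHAM held in 3 of the 9.

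**Figure D4:**
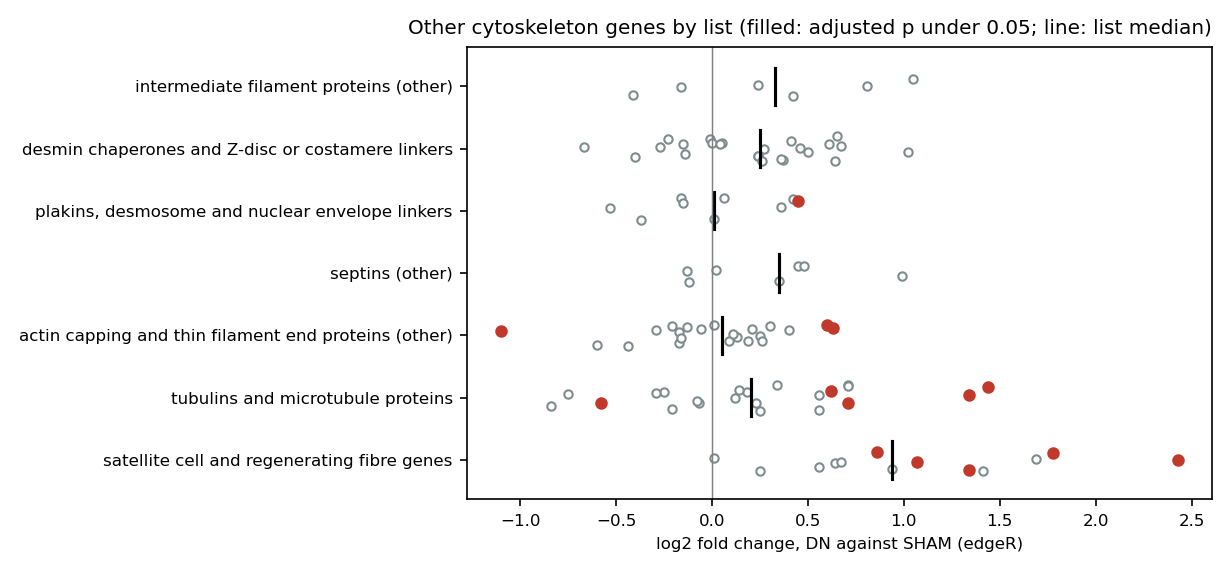
Log2 fold change in DN against SHAM (x axis, edgeR) of every tested gene of 7 lists of related genes (y axis). Filled points have an adjusted p under 0.05 and the black line is the list median. The tubulin list has 4 filled points above 0 and 1 below, the satellite cell and regenerating fibre list has 5 above 0, and the other intermediate filament genes, the desmin chaperones and linkers and the other septins have none.

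The 8 genes did not follow 1 common pattern. Likeness was measured as the root mean square difference of log2 CPM over the 9 libraries, each gene centred on its own mean, and it is a description. The closeness of Synm, Septin7 and Capza2 to each other is in part fixed by their choice, which used 6 of these libraries. The closest pair was Des and Plec at 0.17, followed by Septin7 and Capza2 at 0.222 and by Septin7 and Synm at 0.264. Des and Plec varied little between libraries, which by itself keeps this measure small. Among all tested genes Plec ranked 1808 in closeness to Des, and Des ranked 800 in closeness to Plec. Septin7 ranked 40 for Capza2, and Capza2 ranked 172 for Septin7. The pairs farthest apart were Vim and Capza2, at 0.922, and Nes and Capza2, at 0.861.

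The tested genes with the pattern most like Synm were Mocs2 at 0.0893, Klhl31 at 0.0937 and Rbl2 at 0.115. For Vim they were Itga5 at 0.0848, Myog at 0.0901 and Iah1 at 0.107. For Septin7 they were Tpp2, Naa15 and Zfp644, at 0.104 to 0.116. Capza2 was most like Crbn, at 0.143. Des was most like Psmd3 at 0.0409, and Plec most like Atp6v0a2 at 0.0487, both genes with little difference between libraries. Sync was most like Tmem70 at 0.108. Nes, the gene with the lowest level, had no tested gene closer than Fut4 at 0.203.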

How the data were processed

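mRNA libraries of 9 gastrocnemius samples (SHAM, DN and DN-SM, 3 each) were sequenced on BGISEQ-500, per the labels' protocols. GATK, HISAT2, RSEM and the build rn6 are named in the submitters' processing notes, without versions. Each deposited table holds the expected counts and the FPKM values that the authors computed per gene ID, per the file headers. IDs were matched to RefSeq symbols: 13649 by gene ID, 7 by accession, 96 not. A gene missing from a library's table was taken as 0.

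Expected counts were rounded and tested with edgeR 4.0.16 (TMM factors, filterByExpr at its defaults of 10 for the count and 15 for the total, robust quasi-likelihood F test, two-sided) in 1 fit of all 9 libraries with group as the only term. P-values were adjusted by Benjamini-Hochberg over all 10129 tested genes, and SE is the log2 fold change divided by the square root of F. Levels are the deposited FPKM. The procedure was checked on simulated counts. Alternatives were other library factors, DESeq2 1.42.0, limma 3.58.1 on log2(FPKM + 1) and log2(FPKM + 0.1), no filter, a fit of 2 groups, a replicate block and each library left out. Depth was 7926445 to 8893843 estimated counts per library.

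The 8 genes, the gene lists and the markers were chosen with earlier results of these data known. Besides the 8, the genes named are up to 3 per list and comparison with the smallest p, a short list of always-named genes, genes among the 3 closest in pattern to each of the 8 (not all are reported here), and Actc1, Tnnt2 and Tuba1b, which are named because they completed a count of calls.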

Additional observations from a re-analysis of the deposited data

How the results depend on the processing

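The call of Vim in DN against SHAM was kept in every alternative run, and that of Synm in all except the fit without DN replicate 3. The number of the 8 genes called in DN against SHAM was 2, with 4 by DESeq2 (Septin7 and Capza2 added) and 1 to 4 with a library left out. In DN-SM against SHAM it was 0 in every alternative. The genes called in DN against SHAM were 432, with 770 by DESeq2, 156 in a fit of the 2 groups, 278 and 250 by limma on log2(FPKM + 1) and log2(FPKM + 0.1), 131 by limma without a filter, and 58 (without DN replicate 3) to 1183 (without SHAM replicate 3) with a library left out. In DN-SM against DN, 1 gene was called, with 222 by DESeq2, 716 in a fit of the 2 groups, 0 by limma on log2(FPKM + 0.1), and 0 to 416 with a library left out, the highest without SHAM replicate 3. In DN-SM against SHAM, 85 were called, with 266 by DESeq2, 28 in a fit of the 2 groups, 47 and 43 by limma on log2(FPKM + 1) and log2(FPKM + 0.1), 25 by limma without a filter, and 15 to 137 with a library left out. The cause of these shifts was not tested.

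Signs turned for small log2 fold changes with a library left out, none of them called. In DN against SHAM, Sync ran from -0.03 to 0.30, Capzb from -0.09 to 0.23, Septin2 from -0.15 to 0.18 and Dmd from -0.18 to 0.19. Dmd was also at 0.04, 0.05 and 0.04 by limma with a pseudocount of 1, with 0.1 and without a filter. In DN-SM against DN, Bfsp1 ran from -0.51 to 0.06. In DN-SM against SHAM, Synm ran from -0.19 to 0.11, Capza2 from -0.04 to 0.73, Flnc from -0.23 to 0.06 and Lmna from -0.13 to 0.04.

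With replicate number as a replicate block, edgeR called 317 genes in DN against SHAM, 1 in DN-SM against DN and 39 in DN-SM against SHAM. Of the 8 genes it called 2 in the first and 0 in the last, as without the block. The labels do not say that a number pairs libraries: deviations of same-numbered libraries correlated at -0.048 to 0.109, and 4 of 18 library and group pairs correlated best with their own number. Counts were lowest for Septin7, at 139 to 324 estimated counts per library, and for Nes, at 177 to 563, and each group has 3 libraries.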
